A study of Mus musculus with 30 samples.

Results

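The adherens junction holds brain endothelial cells (ECs) to each other, and 9 genes of it were followed here: the cadherins Cdh5, Cdh2 and Cdh13, the catenins and armadillo proteins Ctnna1, Ctnnd1, Jup and Pkp4, and the immunoglobulin adhesion proteins Pecam1 and Esam. They were chosen by gene symbol among 21761 protein-coding symbols, and all 9 were found in every RNA-seq library. Transcript levels were measured in 2 libraries of GFP-positive cells and 2 libraries of GFP-negative cells, both sorted directly from the brains of adult male Tie2-GFP mice, and in brain ECs kept in culture for 8 days, of which 6 libraries were WT and 4 were beta-catenin stabilized. Tie2-GFP marks ECs, and the files of the sorted cells combine cerebrum and cerebellum. The cultures came from brains of adult males, pooled over several mice, and were purified with puromycin, which spares cells that export it through P-glycoprotein. Replicates of a culture were wells, 2 from each experiment. WT replicates 1 and 2 were from C57BL/6J mice and were isolated by method A (papain). WT replicates 3 to 6 were from Ctnnb1flex3/+;Tie2-GFP mice and were isolated by method B (Dounce homogenization, then collagenase and dispase). The stabilized cultures carried Ctnnb1flex3/+;Pdgfb-CreER;Tie2-GFP, in which 4-hydroxytamoxifen given to the pups lets Cre, driven in ECs, remove exon 3 of 1 allele of beta-catenin. The control mice are described as having received the drug as well. Stabilized replicates 1 and 2 were from method A and replicates 3 and 4 from method B. The record of stabilized replicate 4 names genomic DNA as its molecule, and its title and protocol, which describe RNA-seq, were followed.

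In an adherens junction, a cadherin on one cell binds the same cadherin on its neighbor, and its tail holds p120-catenin and either beta-catenin or plakoglobin, which in turn bind alpha-catenin and through it the actin cytoskeleton. Endothelium is distinctive in using VE-cadherin as its main junctional cadherin, while N-cadherin in the same cells is known for contacts with pericytes. Beta-catenin also serves as the transcriptional arm of canonical Wnt signaling, the pathway that keeps brain endothelium in its barrier state.

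Among the members, Cdh5 encodes VE-cadherin, Cdh2 encodes N-cadherin, and Cdh13 encodes T-cadherin, which is tethered to the membrane by a lipid anchor and has no tail for catenins. Ctnna1 encodes alpha-catenin, Ctnnd1 encodes p120-catenin, which keeps VE-cadherin at the surface, and Jup encodes plakoglobin, a close relative of beta-catenin. Pkp4 encodes p0071, an armadillo protein of the p120 family. Pecam1 encodes PECAM-1 (CD31), and Esam encodes a cell adhesion molecule selective for endothelium and platelets, both being immunoglobulin proteins that lie between ECs at their borders. In GRCm38 with GENCODE M21 annotation, Cdh5 lay on chromosome 8 from 104101625 to 104144511, Cdh13 on chromosome 8 from 118283733 to 119324921, Ctnnd1 on chromosome 2 from 84600071 to 84650765 and Pkp4 on chromosome 2 from 59160850 to 59355208. Jup lay on chromosome 11 from 100368958 to 100397763, Pecam1 on chromosome 11 from 106654217 to 106750628, and Esam on chromosome 9 from 37528078 to 37538319. Cdh13 was the longest of these 9 genes, at 1041.2 kb, and Esam the shortest, at 10.2 kb.

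The estimated counts per library ranged from 55701811 to 94686456 in acutely isolated ECs, from 53421411 to 74422089 in GFP-negative cells, from 24284843 to 65623544 in WT cultures and from 53213098 to 61342434 in stabilized cultures. Sorted cells were read as single reads of 75 cycles and cultures as paired reads of 36 cycles, or of 150 cycles in WT replicates 3 and 4, so that read type and culture cannot be told apart. Mitochondrial genes took 10.6% to 11.2% of the counts in acutely isolated ECs and 0.667% to 1.58% in WT cultures. All 10 endothelial markers, none of them a member, had at least 5 TPM (a level scaled by transcript length and by the library) in every EC library, and their summed level in GFP-negative cells was 9.38 to 12.1 TPM. The summed level of 8 pericyte markers was 542 to 544 TPM in acutely isolated ECs and 4.26 to 10.3 TPM in WT cultures, where Kcnj8, Abcc9, Anpep, Vtn and Atp13a5 stayed under 1 TPM. The 6 smooth muscle markers summed to 217 to 236 TPM in acutely isolated ECs and 503 to 3075 TPM in WT cultures, and the 5 erythrocyte markers to 5448 to 41099 TPM and 0 to 1.39 TPM. The 5 platelet and leukocyte markers, whose cells also make Pecam1, summed to 3.35 to 19.2 TPM in acutely isolated ECs and 0.425 to 2.01 TPM in WT cultures. In GFP-negative cells, the pericyte markers summed to 362 to 726 TPM and the smooth muscle markers to 3628 to 5339 TPM. The erythrocyte markers there summed to 1368 to 15185 TPM, and the platelet and leukocyte markers to 12.3 to 31.8 TPM. The 6 markers of choroid plexus and other epithelium, whose cells make Jup, summed to 474 to 3059 TPM there. In acutely isolated ECs they summed to 3.79 to 18.5 TPM. The part of these cells in the results below was not tested, and in bulk samples fewer cells of a type cannot be told apart from less RNA per cell.

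The first comparison, of GFP-positive with GFP-negative cells, asked which members are transcripts of ECs in the brain. VE-cadherin and PECAM-1 were nearly restricted to the sorted ECs, Esam, p120-catenin, plakoglobin and alpha-catenin were also higher there, and N-cadherin and p0071 were not called in either direction. Of the 9 members, 6 were called higher in GFP-positive cells and 0 lower, where 8.34% of the 15080 symbols tested were called higher and 7.59% lower. To be called, a gene needed an adjusted p under 0.05, a change over 2-fold and 5 TPM or more in every library of the higher group.

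Cdh5 was at 136 and 153 TPM in the GFP-positive libraries and at 1.66 and 0.681 TPM in the GFP-negative libraries. The groups were far apart, with a log2 fold change on estimated counts of 7.17 ± 0.770 (SE) and a Benjamini-Hochberg adjusted p of 0.00240 in the quasi-likelihood test of edgeR. Pecam1 followed, at 344 and 380 TPM against 8.37 and 1.19 TPM (log2 fold change 6.78 ± 0.786, edgeR adjusted p = 0.00295). Esam differed from both in having a level in GFP-negative cells that was not near 0, at 93.9 and 94.3 TPM against 822 and 1346 TPM (log2 fold change 4.20 ± 0.359, edgeR adjusted p = 0.00163). Most of that GFP-negative Esam level was assigned to a single short transcript, described further on.

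The catenins and plakoglobin had smaller differences. Ctnnd1 was at 166 and 101 TPM in GFP-positive cells and 26.0 and 41.5 TPM in GFP-negative cells (log2 fold change 2.18 ± 0.377, edgeR adjusted p = 0.00955). Jup was at 84.2 and 43.9 TPM against 24.7 and 13.1 TPM (log2 fold change 1.88 ± 0.396, edgeR adjusted p = 0.0173), and Ctnna1 at 125 and 187 TPM against 87.0 and 96.7 TPM (log2 fold change 1.59 ± 0.302, edgeR adjusted p = 0.0124). For each of the 3 the groups did not overlap, as for the 20.2% of all tested symbols whose TPM values lay wholly higher in GFP-positive cells, and the calls of Jup and Ctnna1 were fragile with 2 libraries a group. Jup lost its call without GFP-positive replicate 1 (1.47, edgeR adjusted p = 0.0592) or GFP-negative replicate 2 (1.58, adjusted p = 0.0923), and Ctnna1 without GFP-negative replicate 1 (1.49, adjusted p = 0.0707). With an offset for transcript length, both lost it (Jup 1.99, adjusted p = 0.117, and Ctnna1 0.91, adjusted p = 0.169).

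Cdh2 was at 11.2 and 11.5 TPM in GFP-positive cells and at 11.7 and 22.3 TPM in GFP-negative cells, a log2 fold change of −0.22 ± 0.355 on counts (edgeR adjusted p = 0.681). Its lowest GFP-negative value lay just above the highest GFP-positive value, where 37.1% of all tested symbols had TPM values wholly lower in GFP-positive cells. Pkp4 was at 112 and 116 TPM against 96.1 and 59.1 TPM (log2 fold change 0.74 ± 0.404, edgeR adjusted p = 0.226). Cdh13 was low in both fractions, at 1.28 and 3.36 TPM in GFP-positive cells and 0.357 and 0.563 TPM in GFP-negative cells. It passed the test (log2 fold change 2.81 ± 0.622, edgeR adjusted p = 0.0200) but was under the minimum of 5 TPM and was not called.

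**Figure D1:**
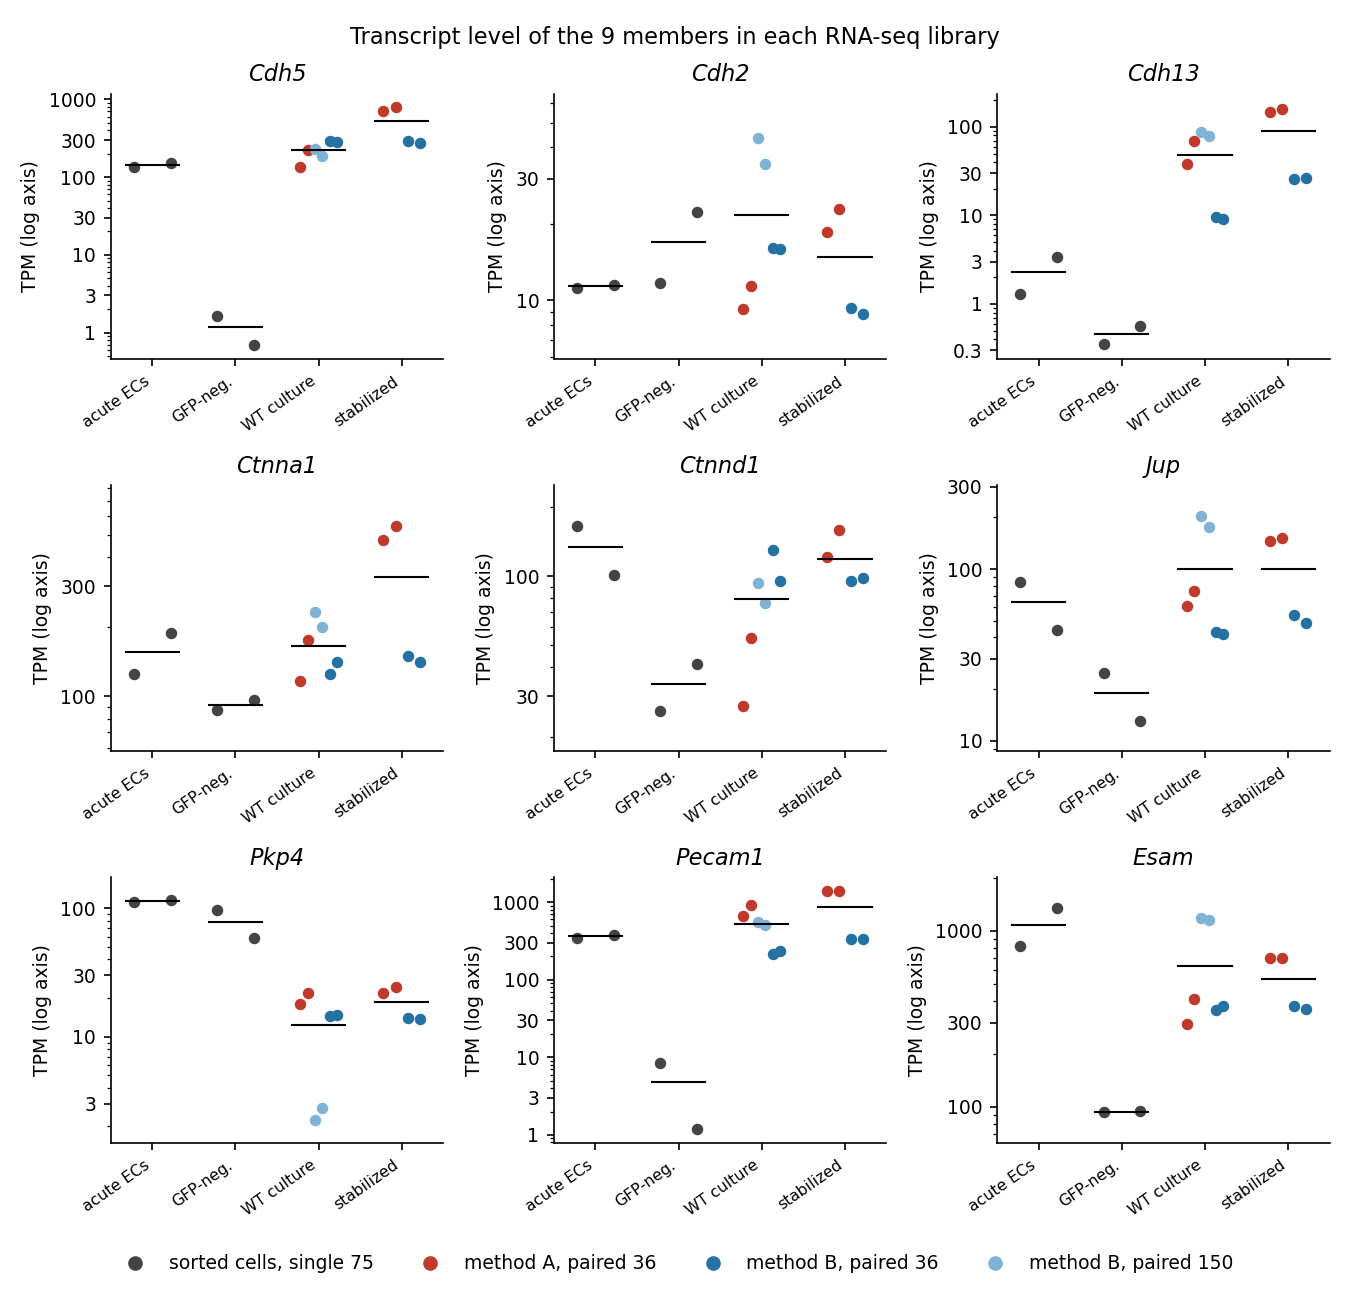
Transcript level (TPM, log axis) of each member in each RNA-seq library, with points colored by isolation method and read type and a line at each group's mean. Cdh5 and Pecam1 are at 8.37 TPM or less in GFP-negative cells and at 136 TPM or more in every EC library, Cdh13 rises from 1.28 and 3.36 TPM in acutely isolated ECs to 9.12 TPM or more in culture, and Pkp4 moves the other way.

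The members had a steep order of levels in acutely isolated ECs. By mean TPM (SD, n = 2), Esam was highest at 1084 ± 371, followed by Pecam1 at 362 ± 25.2, Ctnna1 at 156 ± 44.0, Cdh5 at 144 ± 12.1, Ctnnd1 at 133 ± 45.6 and Pkp4 at 114 ± 3.19. Jup was at 64.1 ± 28.5, Cdh2 at 11.3 ± 0.215 and Cdh13 at 2.32 ± 1.47. Ctnna1, Cdh5, Ctnnd1 and Pkp4 overlapped from each to the next. Both Ctnna1 and Cdh5 lay wholly above Pkp4, but the rest of the order of these genes is not set by these libraries. The other neighbors in the order did not overlap.

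The second comparison, of WT cultures with acutely isolated ECs, asked what 8 days of culture did to the junction's transcripts. Of the 9 members, T-cadherin was called higher in culture and p0071 was called lower, and VE-cadherin, N-cadherin, the catenins, plakoglobin, PECAM-1 and Esam were not called. Of the 13757 symbols tested, 13.6% were called higher in culture and 10.3% lower, against 1 member in each direction. The members' TPM values did not overlap between the groups for Cdh13 and Pkp4 and overlapped for the other 7, where those of 32.1% of all tested symbols lay wholly higher in culture and those of 16.3% wholly lower.

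Cdh13 rose from 1.28 and 3.36 TPM in acutely isolated ECs to a lowest value of 9.12, a median of 53.6 and a highest value of 86.9 TPM in the 6 WT cultures. Every culture was above both acutely isolated libraries, although the cultures of WT replicates 5 and 6, at 9.49 and 9.12 TPM, were well under the 38.6 to 86.9 TPM of the other 4. The log2 fold change on counts was 3.16 ± 0.811 (SE), with a 95% interval from 1.32 to 4.99 and an edgeR adjusted p of 0.0124. With 2 acutely isolated libraries, the call did not hold without either of them (2.84, adjusted p = 0.101, without replicate 1, and 3.53, adjusted p = 0.0603, without replicate 2).

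Pkp4 fell from 112 and 116 TPM in acutely isolated ECs to a lowest value of 2.24, a median of 14.6 and a highest value of 22 TPM in WT cultures. The lowest values were those of replicates 3 and 4, the libraries of 150 cycles. On counts the log2 fold change was −3.04 ± 0.923 (95% interval from −5.13 to −0.96, edgeR adjusted p = 0.0250). This call too was lost without acutely isolated replicate 1 (−3.00, adjusted p = 0.0898) or replicate 2 (−3.14, adjusted p = 0.0743), and with protein-coding transcripts alone (−1.91, adjusted p = 0.116).

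For the junction's main cadherin, the 2 scales moved apart. Cdh5 was at 136 and 153 TPM in acutely isolated ECs and between 136 and 295 TPM (median 225) in WT cultures, whereas on counts its log2 fold change was −0.65 ± 0.583, with a 95% interval from −1.97 to 0.67 and an edgeR adjusted p of 0.387. The median log2 ratio of all tested symbols between the groups was 0.64 on TPM and 0.40 on CPM (counts scaled to the library total), and the TPM ratio of Cdh5, 0.64 on the log2 scale, lay at that median. Cdh2 ranged from 9.21 to 43.4 TPM in WT cultures, with a median of 16.0 TPM, against 11.2 and 11.5 TPM. Its values of 43.4 and 34.3 TPM were those of the 150-cycle libraries, and its log2 fold change on counts was −0.59 ± 0.324 (95% interval from −1.32 to 0.14, edgeR adjusted p = 0.164).

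Among the catenins and plakoglobin, Ctnna1 ranged from 117 to 231 TPM in WT cultures (median 158), around the 125 and 187 TPM of acutely isolated ECs. Its log2 fold change was −0.30 ± 0.328 (95% interval from −1.04 to 0.44, edgeR adjusted p = 0.483). Ctnnd1 ranged from 27.1 to 130 TPM (median 84.7) against 166 and 101 TPM, with a log2 fold change of −0.89 ± 0.558 (95% interval from −2.15 to 0.37, edgeR adjusted p = 0.219). Jup ranged from 41.9 to 205 TPM (median 67.8) against 84.2 and 43.9 TPM, with a log2 fold change of −0.06 ± 0.305 (95% interval from −0.74 to 0.63, edgeR adjusted p = 0.894). For each of the 3 the ranges overlapped, and the intervals of Ctnna1 and Ctnnd1 still include a level lower by over 2-fold in culture.

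The immunoglobulin proteins were likewise not called. Pecam1 was at 344 and 380 TPM in acutely isolated ECs and at 214 to 932 TPM in WT cultures (median 537), with WT replicates 1 to 4 above both and WT replicates 5 and 6 below both. Its log2 fold change was 0.27 ± 0.636 (95% interval from −1.17 to 1.71, edgeR adjusted p = 0.748). Esam was at 822 and 1346 TPM in acutely isolated ECs and at 297 to 1184 TPM in WT cultures (median 390). The log2 ratio of its mean levels was −0.79 on TPM and 0.91 on CPM. Its log2 fold change in the model of counts was 0.53 ± 0.374 (95% interval from −0.32 to 1.37, edgeR adjusted p = 0.273).

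**Figure D2:**
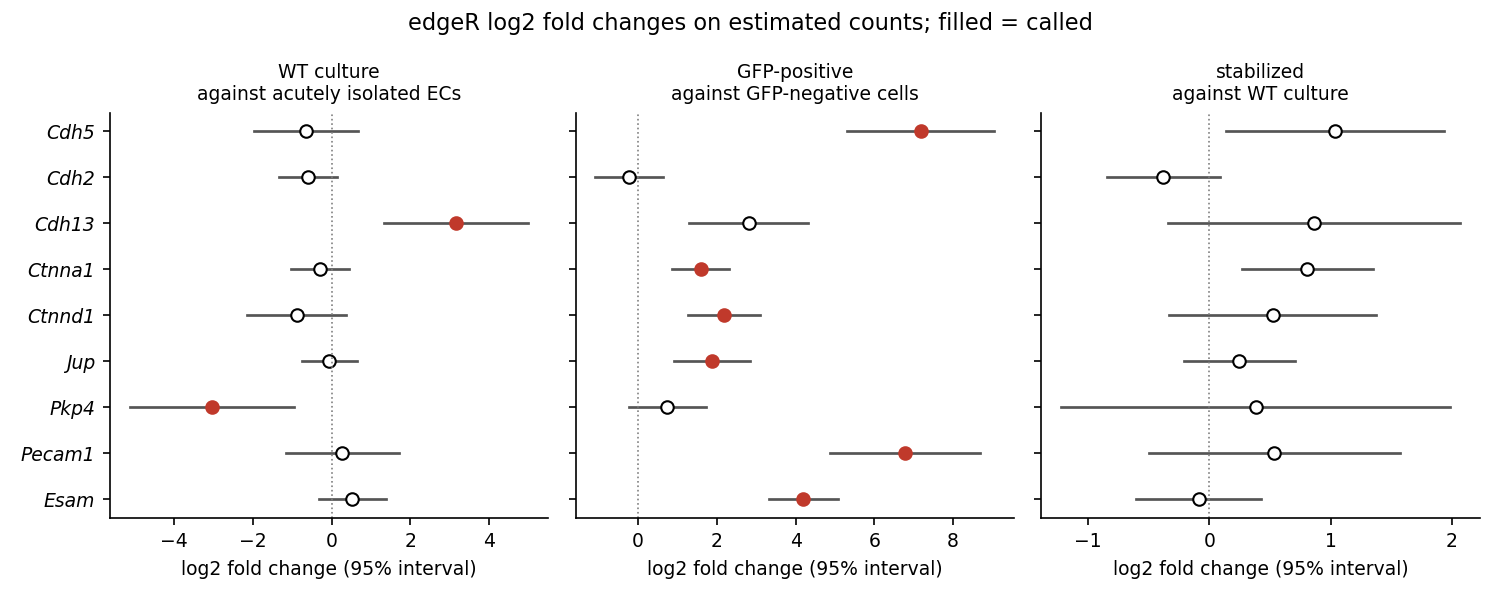
Log2 fold changes of the 9 members on estimated counts in the 3 comparisons (edgeR, bars give the 95% interval, filled points are called). In GFP-positive against GFP-negative cells 6 members are filled, in WT cultures against acutely isolated ECs only Cdh13 and Pkp4 are, and in stabilized against WT cultures none is.

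Isolation method and read length both changed within the WT cultures, and 3 further calls appeared when the cultures were held to method A. Pecam1 was then called higher (1.14, edgeR adjusted p = 0.0426), and Ctnnd1 (−1.65, adjusted p = 0.0201) and Cdh2 (−1.12, adjusted p = 0.0239) were called lower, beside Cdh13 and Pkp4. Of all 13380 symbols tested in that setting, 15.2% were called higher and 13.3% lower. With method B cultures only, Pecam1 was at −0.50 and the call of Pkp4 was lost (−3.35, adjusted p = 0.0583).

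The 2 scales of Esam went opposite ways, and the transcripts to which Salmon assigned its reads differed between the groups. In acutely isolated ECs, transcripts under 0.5 of the longest coding length held 73.7% and 78.8% of the Esam TPM but 9.91% and 6.41% of its counts. In WT cultures they held 1.15% to 4.29% of its TPM. A single transcript annotated as a target of nonsense-mediated decay, Esam-206 of 216 bases, accounted for 549 and 1045 TPM in acutely isolated ECs and for at most 1.10 TPM in any culture. The full-length coding transcript Esam-201, of 1865 bases, was at 217 and 286 TPM in acutely isolated ECs, between 284 and 1171 TPM in WT cultures and between 348 and 677 TPM in stabilized cultures. With transcript length as an offset in edgeR, Esam was called lower in culture (−1.57, adjusted p = 0.00333).

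The same pattern of assignment held for several members and for the transcriptome as a whole. The median share of a gene's TPM in such short transcripts was 36.5% and 35.9% in the acutely isolated libraries, 37.9% and 40.6% in the GFP-negative libraries, 1.28% to 5.72% in WT cultures and 4.04% to 4.59% in stabilized cultures. Among the members the share in acutely isolated ECs was 58.0% and 66.7% for Pecam1, 71.1% and 54.1% for Ctnnd1, 52.4% and 60.0% for Ctnna1 and 51.7% and 33.2% for Jup. In WT cultures it ranged from 0 to 11.4% for Pecam1, from 0 to 25.4% for Ctnnd1, from 1.65% to 14.7% for Ctnna1 and from 3.04% to 13.7% for Jup. For these 5 genes no culture reached the lowest acutely isolated value. Cdh5, Cdh2 and Cdh13 were nearly free of short transcripts, with at most 4.15% of their TPM there in acutely isolated ECs. The read type of the sorted libraries cannot be told apart from the state of the cells here, since GFP-negative cells were read in the same way.

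**Figure D3:**
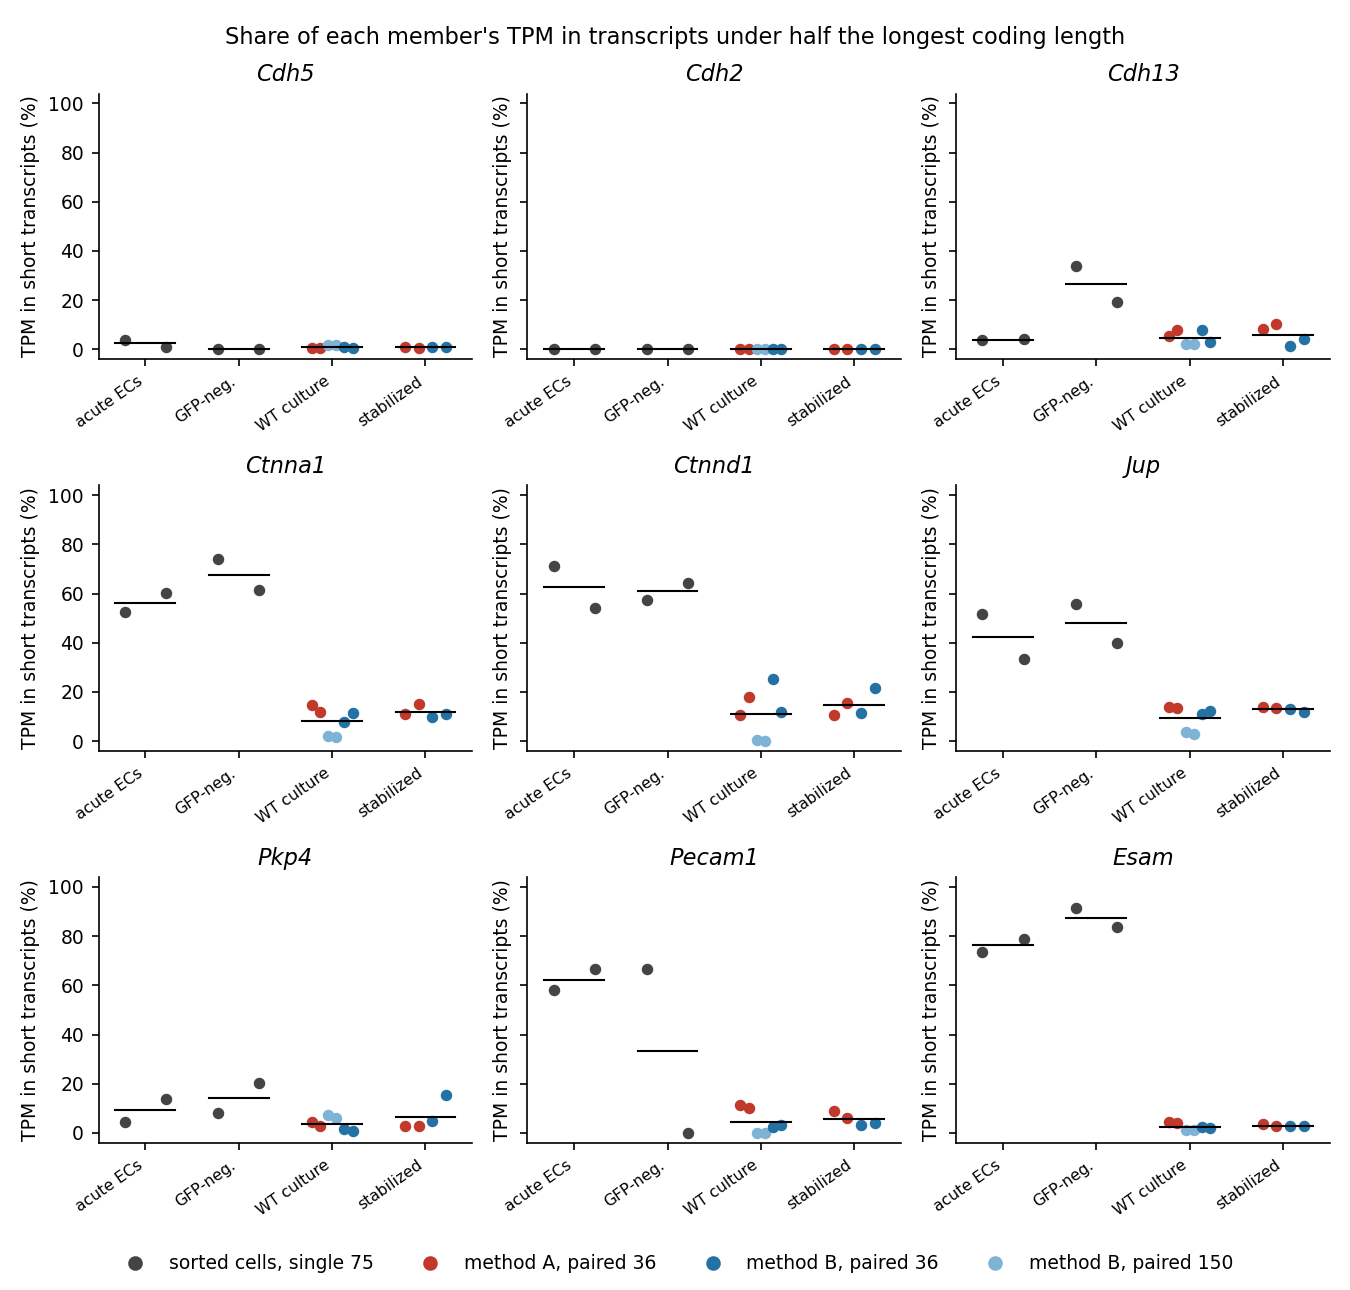
Share of each member's TPM (%) in transcripts under 0.5 of its longest coding length, by library, with a line at each group's mean and points colored by isolation method and read type. The sorted cells lie at 33.2% or more for Esam, Ctnna1, Ctnnd1 and Jup, the cultures at 25.4% or less for every member, and Cdh5 and Cdh2 stay near 0 throughout.

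Restricting the level to long transcripts reordered the members in acutely isolated ECs. Esam was then at 217 and 286 TPM, Pecam1 at 145 and 126 TPM, Ctnna1 at 59.4 and 74.7 TPM, Ctnnd1 at 47.9 and 46.5 TPM and Jup at 40.7 and 29.3 TPM, and Cdh5 came to stand next after Esam by mean level, overlapping Pecam1. Pkp4 had another kind of shift. Its leading transcript in acutely isolated ECs was Pkp4-209, a processed transcript of 2505 bases with no coding annotation, at 80.3 and 77.2 TPM, against 53.1 and 34.5 TPM in GFP-negative cells and 0 to 6.17 TPM in WT cultures. Its coding transcript Pkp4-210, of 4484 bases, was at 1.38 and 21.2 TPM in acutely isolated ECs and at 1.35 to 11.0 TPM in WT cultures, which overlapped. By contrast, VE-cadherin was carried by 1 transcript in all conditions, Cdh5-201 holding 97.6% ± 1.83 (SD, n = 2) of its TPM in acutely isolated ECs and 99.0% ± 0.430 (SD, n = 6) in WT cultures.

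The third comparison, of stabilized with WT cultures, asked what constitutive beta-catenin does to the junction in culture. No member was called over all 10 cultures, and neither was any of the 12935 symbols tested (0% higher and 0% lower). Of all symbols 1421 had an unadjusted p under 0.05 in edgeR, and DESeq2 called 15 higher and 3 lower, with 0 members among them. The targeted gene Ctnnb1 was at 758, 808, 306 and 306 TPM in the stabilized cultures and at 230 to 747 TPM (median 379) in WT cultures. These gene-level values do not separate the transcript that lacks exon 3, and so they do not check the genotype.

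Cdh5 was at 713, 795, 295 and 278 TPM in stabilized replicates 1 to 4, against 136 to 295 TPM in WT cultures. Both method A libraries were above all WT cultures and both method B libraries were within the WT range. Its log2 fold change on counts was 1.04 ± 0.405 (edgeR unadjusted p = 0.0273, adjusted p = 0.415). Ctnna1 had the same shape, at 477, 546, 150 and 140 TPM against 117 to 231 TPM (log2 fold change 0.81 ± 0.243, edgeR unadjusted p = 0.00717, adjusted p = 0.394). Wells that shared a replicate number deviated together from their group means, but they also shared an isolation method. The number was also fitted as a block, although nothing else is known to pair these wells. The 8 libraries with a shared number leave out WT replicates 5 and 6. In method B they set stabilized wells of 36 cycles against WT wells of 150 cycles. Over these 8, the block gave 2 calls among the members, Cdh5 (1.72, edgeR adjusted p = 0.0403) and Ctnnd1 (1.22, adjusted p = 0.0389). The same 2 were called in those 8 libraries without the block (1.63, adjusted p = 0.0374, and 1.23, adjusted p = 0.0199). Of all 12759 symbols tested there, 151 (1.18%) were called higher with the block and 164 (1.29%) without it.

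The other members were not called over all cultures either. Cdh13 was at 149, 159, 25.8 and 26.4 TPM in stabilized cultures (log2 fold change 0.86 ± 0.543, edgeR adjusted p = 0.564). Pecam1 was at 1409, 1403, 338 and 338 TPM (log2 fold change 0.54, edgeR adjusted p = 0.672), and Ctnnd1 was at 120, 158, 95.6 and 98.0 TPM (log2 fold change 0.52, edgeR adjusted p = 0.615). In each of them the method A wells were the higher pair. Cdh2 was at 18.5, 22.8, 9.31 and 8.79 TPM, Pkp4 at 22, 24.4, 14 and 13.7 TPM, Jup at 145, 151, 54.3 and 48.6 TPM and Esam at 700, 698, 375 and 358 TPM, all with an edgeR adjusted p of 0.516 or more.

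Because the wells fell so clearly by isolation method, stabilized and WT cultures were also compared within each method, among the 8 cultures of 36 cycles. VE-cadherin, p120-catenin and alpha-catenin had effects of 0.96 to 1.35 on the log2 scale in method A and of −0.07 to 0.21 in method B, whereas the effects of T-cadherin and PECAM-1 were larger in method B and those of N-cadherin had opposite signs. The difference between methods passed the test of the interaction for 6 of the 9 members, a share to be read against 50.0% of all 13328 symbols tested. Each method was 1 experiment per genotype, so that these p values measure the spread between wells. Within method A, the WT wells were C57BL/6J and the stabilized wells were not, and strain and stabilization cannot be told apart there. The marker sums also fell by method. Endothelial markers summed to 4985 and 4911 TPM in the stabilized wells and 3830 and 4694 TPM in the WT wells of method A, against 1803 and 1727 TPM and 1556 and 1725 TPM in method B. Smooth muscle markers summed to 463 and 559 TPM and 562 and 503 TPM in method A, against 2563 and 2260 TPM and 3054 and 3075 TPM in method B, and their part in the result was not tested.

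Cdh5 was higher by 1.35 ± 0.0892 on the log2 scale of counts in method A and by 0.10 ± 0.0876 in method B, a difference (B minus A) of −1.25 with an edgeR adjusted p of 0.00016. For Ctnnd1 the effects were 1.04 ± 0.145 and −0.07 ± 0.143 (difference −1.12, edgeR adjusted p = 0.00218), and for Ctnna1 they were 0.96 ± 0.0647 and 0.21 ± 0.0641 (difference −0.75, edgeR adjusted p = 0.000352). Plakoglobin (Jup), which also binds the cadherin tail, had similar effects in both methods, at 0.41 ± 0.0687 in method A and 0.38 ± 0.0687 in method B. On TPM the method A comparison carried a shift of all symbols, with a median log2 ratio of 0.68 against 0.16 on CPM, and the TPM ratio of Cdh5 was 2.07 there.

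Cdh2 was at 0.28 ± 0.0719 in method A and at −0.72 ± 0.0708 in method B (difference −0.996, edgeR adjusted p = 0.000172). Cdh13 was at 0.73 ± 0.101 and 1.62 ± 0.104 (difference 0.89, edgeR adjusted p = 0.00119), the only member whose effect in both methods was over 0.5 on this scale. Pecam1 was at 0.09 ± 0.0638 and 0.69 ± 0.0641 (difference 0.60, edgeR adjusted p = 0.000909). For Jup, Pkp4 and Esam the difference between methods did not pass the test, with 95% intervals from −0.24 to 0.20, from −0.08 to 0.34 and from −0.42 to 0.0023. With the method as a covariate over these 8 cultures, Cdh13 was the 1 member called (1.17, edgeR adjusted p = 0.00942), as it was within method B alone (1.64, adjusted p = 0.000162), where 0.519% and 1.09% of all symbols were called higher.

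**Figure D4:**
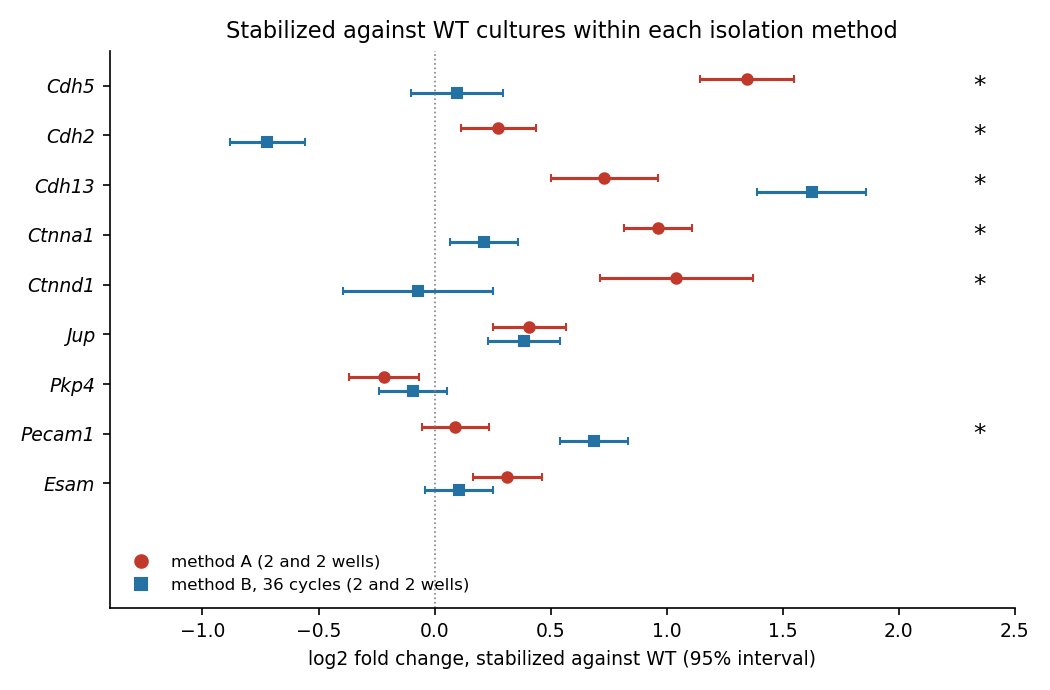
Log2 fold change of each member in stabilized against WT cultures (edgeR, counts, bars give the 95% interval) within method A (circles) and within method B at 36 cycles (squares), with 2 wells per group and asterisks at the 6 members whose interaction passed the test. Cdh5, Ctnna1 and Ctnnd1 lie near 1 or above in method A and near 0 in method B, while Cdh2 lies at 0.28 and −0.72.

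The balance of N-cadherin to VE-cadherin, taken as the ratio of their TPM values in each library, was 0.0823 and 0.0751 in acutely isolated ECs. It was 0.0676, 0.0514, 0.191, 0.181, 0.0545 and 0.0565 in WT replicates 1 to 6, with the 150-cycle libraries apart from the rest, and 7.08 and 32.7 in GFP-negative cells, where Cdh5 is nearly absent. In stabilized cultures it was 0.0260, 0.0287, 0.0316 and 0.0316, or 0.0295 ± 0.0027 (SD, n = 4) against 0.100 ± 0.0666 (SD, n = 6) in WT cultures. Every stabilized culture, of either method, had a lower ratio than every WT culture, and no other pair of genes was compared in this way. On counts within method A, Cdh5 was higher by 1.35 and Cdh2 by 0.28. Within method B, Cdh5 was at 0.10 and Cdh2 at −0.72. The wells were 2 per experiment, and strain differed between the groups within method A.

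The rest of the junction was described by 5 lists of genes. Among 9 other catenins and armadillo proteins tested between WT cultures and acutely isolated ECs, 1 was called higher and 1 lower (median log2 fold change −0.74, against 0.10 over all symbols). Plakophilin Pkp2, a desmosomal armadillo protein, rose by 6.99 on the log2 scale (edgeR adjusted p = 0.000517) from at most 0.0982 TPM in acutely isolated ECs to 6.28 to 20.0 TPM. Ctnnb1, beta-catenin itself, fell by 1.195 ± 0.417 (edgeR adjusted p = 0.0427), from 881 and 952 TPM. Of the 22 other members of the cadherin superfamily tested, 1 was called higher and 4 lower (median −0.997). Protocadherin Pcdh7 rose by 5.09 (edgeR adjusted p = 0.000597), Pcdh18 fell by 3.75 (adjusted p = 0.000188), and Pcdh12, an endothelial protocadherin, fell by 2.19 (adjusted p = 0.00289).

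Of 13 nectins and other junctional adhesion molecules, 4 were called higher in culture and 2 lower (median 1.08). Nectin2 rose by 3.14 (edgeR adjusted p = 0.000845) and Mcam (CD146) by 2.69 (adjusted p = 0.0151), while the junctional adhesion molecule Jam2 fell by 4.31 (adjusted p = 0.000548) and basigin (Bsg) by 2.75 (adjusted p = 0.000337). Of 18 actin linkers and scaffolds, 4 were called higher and 1 lower (median 0.10), the LIM protein Ajuba being higher by 3.41 (adjusted p = 0.000384), Pdlim1 higher by 2.996 (adjusted p = 0.0019) and the polarity scaffold Pard3 lower (−1.57, adjusted p = 0.0122). Of 29 kinases, phosphatases, proteases and GTPase regulators that act on VE-cadherin, 4 were called higher and 6 lower (median −0.53). The kinase Src was higher by 3.45 on counts (edgeR adjusted p = 0.0229) and Ccm2 by 1.96 (adjusted p = 0.0078). For Src the TPM values overlapped, at 6.86 and 18.9 in acutely isolated ECs and 10.1 to 48.3 in WT cultures. The Rac exchange factor Tiam1 fell by 8.08 (edgeR adjusted p = 0.000116). Ptprb, the VE-PTP phosphatase that binds VE-cadherin, fell by 2.96 (adjusted p = 0.00282). Over the 91 genes of the lists tested, 14 were called higher and 14 lower, beside 13.6% and 10.3% of all symbols.

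Between GFP-positive and GFP-negative cells, 29 of the 97 genes tested in these lists were called higher and 19 lower, where 8.34% and 7.59% of all symbols were. The regulators of VE-cadherin had 14 of 29 called higher and 2 lower (median 1.29, against −0.06 over all symbols), including Rasip1 at 8.51 (edgeR adjusted p = 0.00211) and Ptprb at 8.16 (adjusted p = 0.00153), with Src at −1.91 (adjusted p = 0.0307) and Arhgef7 at −1.33 (adjusted p = 0.0284). For Src the mean TPM went the other way, at 12.9 in GFP-positive cells and 9.39 in GFP-negative cells. The nectin list had 6 higher and 2 lower of 14 (median 0.56), with Icam2 at 7.75 (adjusted p = 0.00167), Bsg at 4.92 (adjusted p = 0.00163), Jam3 at −2.82 (adjusted p = 0.00819) and Mcam at −2.59 (adjusted p = 0.00406). Of 27 other cadherins 3 were called higher, 8 were called lower and 16 were not called (median −3.18), from Pcdh12 at 5.21 (adjusted p = 0.00407) and Pcdh19 at 3.26 (adjusted p = 0.00471) to Cdh20 at −7.00 (adjusted p = 0.0227) and Cdh22 at −8.98 (adjusted p = 0.00617), both under 1 TPM in ECs. Other catenins had 2 higher and 3 lower of 9 (median −2.54), with Ctnnb1 at 3.19 (adjusted p = 0.00329), its inhibitor Ctnnbip1 at 2.83 (adjusted p = 0.0046), the neural catenin Ctnnd2 at −3.13 (adjusted p = 0.0044) and Ctnnal1 at −3.49 (adjusted p = 0.00996). Actin linkers had 4 higher and 4 lower of 18 (median −0.13), with Lima1 at 2.95 (adjusted p = 0.00489), afadin (Afdn) at 2.89 (adjusted p = 0.00483), Pdlim1 at −3.18 (adjusted p = 0.0057) and Plekha7 at −3.56 (adjusted p = 0.00947). Between stabilized and WT cultures, 0 of the 87 genes tested were called by edgeR, and the medians of the lists lay between −0.21 and 0.30.

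Chromatin accessibility was measured by ATAC-seq, in which a transposase cuts open DNA, with 2 libraries for acutely isolated ECs, 6 for WT cultures (replicates 1 and 2 by method A, the rest by method B) and 2 for stabilized cultures (method B). After a filter on fold enrichment over 2 and −log10 q over 2, acutely isolated libraries held 37384 and 31779 peaks, WT cultures 33122 to 98732 and stabilized cultures 80034 and 79116. Of the 9 members, 8 had a peak within 1000 bases of the start of their leading coding transcript in every library of every group. In a single library, 53.5% to 64.9% of 21877 genes had a peak that near any of their coding starts, which is a looser measure. Cdh13 was the exception. It had a promoter peak in WT replicate 4 (fold enrichment 2.26) and stabilized replicate 2 (2.18) and in none of the other 8 libraries. A region 3.02 kb downstream of the Cdh13 start had a peak in every library.

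The height of promoter peaks was compared as the caller's fold enrichment. The value at the Cdh5 promoter was 11.1 and 13.2 in acutely isolated ECs, 6.50 to 8.23 in WT cultures and 6.93 and 7.12 in stabilized cultures, without overlap. At the Pkp4 promoter it was 16.4 to 17.0 in acutely isolated ECs and 12.6 to 14.3 in WT cultures, again without overlap, and at the Cdh2 promoter it was 8.62 and 9.37 against 6.53 to 8.36. At the Esam promoter, in the other direction, it was 5.04 and 5.19 against 5.38 to 8.09. Of the 10342 genes with a promoter peak in all 8 of these libraries, 12.6% were lower in every WT culture than in both acutely isolated libraries and 9.15% were higher, against 3 and 1 of the members. For Ctnnd1 (15.1 to 16.2 against 5.81 to 24.0), Jup (11.4 to 11.9 against 11.2 to 15.3), Pecam1 (7.90 to 12.0 against 5.67 to 9.64) and Ctnna1 (11.9 to 13.3 against 5.21 to 13.5) the groups overlapped. Fold enrichment depends on depth and on the background of a library, and no test was made of it.

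Peaks were also counted over each whole gene, with promoter peaks included. For Cdh13, over the gene and 5000 bases on either side, acutely isolated libraries had 5 and 3 peaks, WT replicates 1 to 6 had 16, 10, 33, 34, 26 and 31, and stabilized cultures had 26 and 29. WT replicate 2 had 10 although its library held 33122 peaks in all, fewer than the 37384 of acutely isolated replicate 1, which had 5. At Cdh2 the number of peaks was 1 in each acutely isolated library and 7 to 13 in WT cultures. It was 1 and 2 to 12 at Ctnna1, and 4 to 5 and 6 to 13 at Cdh5. At Pkp4 it was 5 to 8 and 6 to 21, and at Pecam1 10 to 12 and 5 to 17. The 1 acutely isolated peak at Cdh2 and at Ctnna1 was the promoter peak, and in WT replicate 2 both Ctnna1 peaks lay at the promoter. Most culture libraries held more peaks in all, and these counts were not set against those of all genes. Merged over the libraries, the 9 genes with 5000 bases on either side held 158 regions. Of these, 14 (8.86%) were gained, that is, had a peak in all 6 WT cultures and in neither acutely isolated library. The reverse, called lost, held for 6 (3.80%). Of all 125880 regions 8.11% were gained and 2.92% lost, so that the members together lay near that background.

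The gained regions were spread unequally. Cdh13 had 5 of its 44 regions gained, Cdh2 had 4 of 14, Cdh5 and Esam had 2 of 13 and 2 of 7, and Pkp4 had 1 of 25. Neither gained region of Esam lay inside the gene, 1 being 1.0 kb upstream of its start and the other in the neighboring gene Vsig2. Pecam1 had 3 of its 26 regions lost, and Pkp4, Jup and Esam had 1 each. Ctnna1 and Ctnnd1 had neither among 13 and 8. In Cdh13 the gained regions lay 66.63, 234.47, 395.79, 442.41 and 986.0 kb downstream of the start, none overlapping an exon, with highest fold enrichments of 23.6, 18.4, 19.3, 16.7 and 11.0. In Cdh5 they lay 5.8 and 9.4 kb into the gene, while a region 20.38 kb downstream of its start was open in all libraries, with a highest fold enrichment of 8.43 in acutely isolated ECs and 18.6 in WT cultures.

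**Figure D5:**
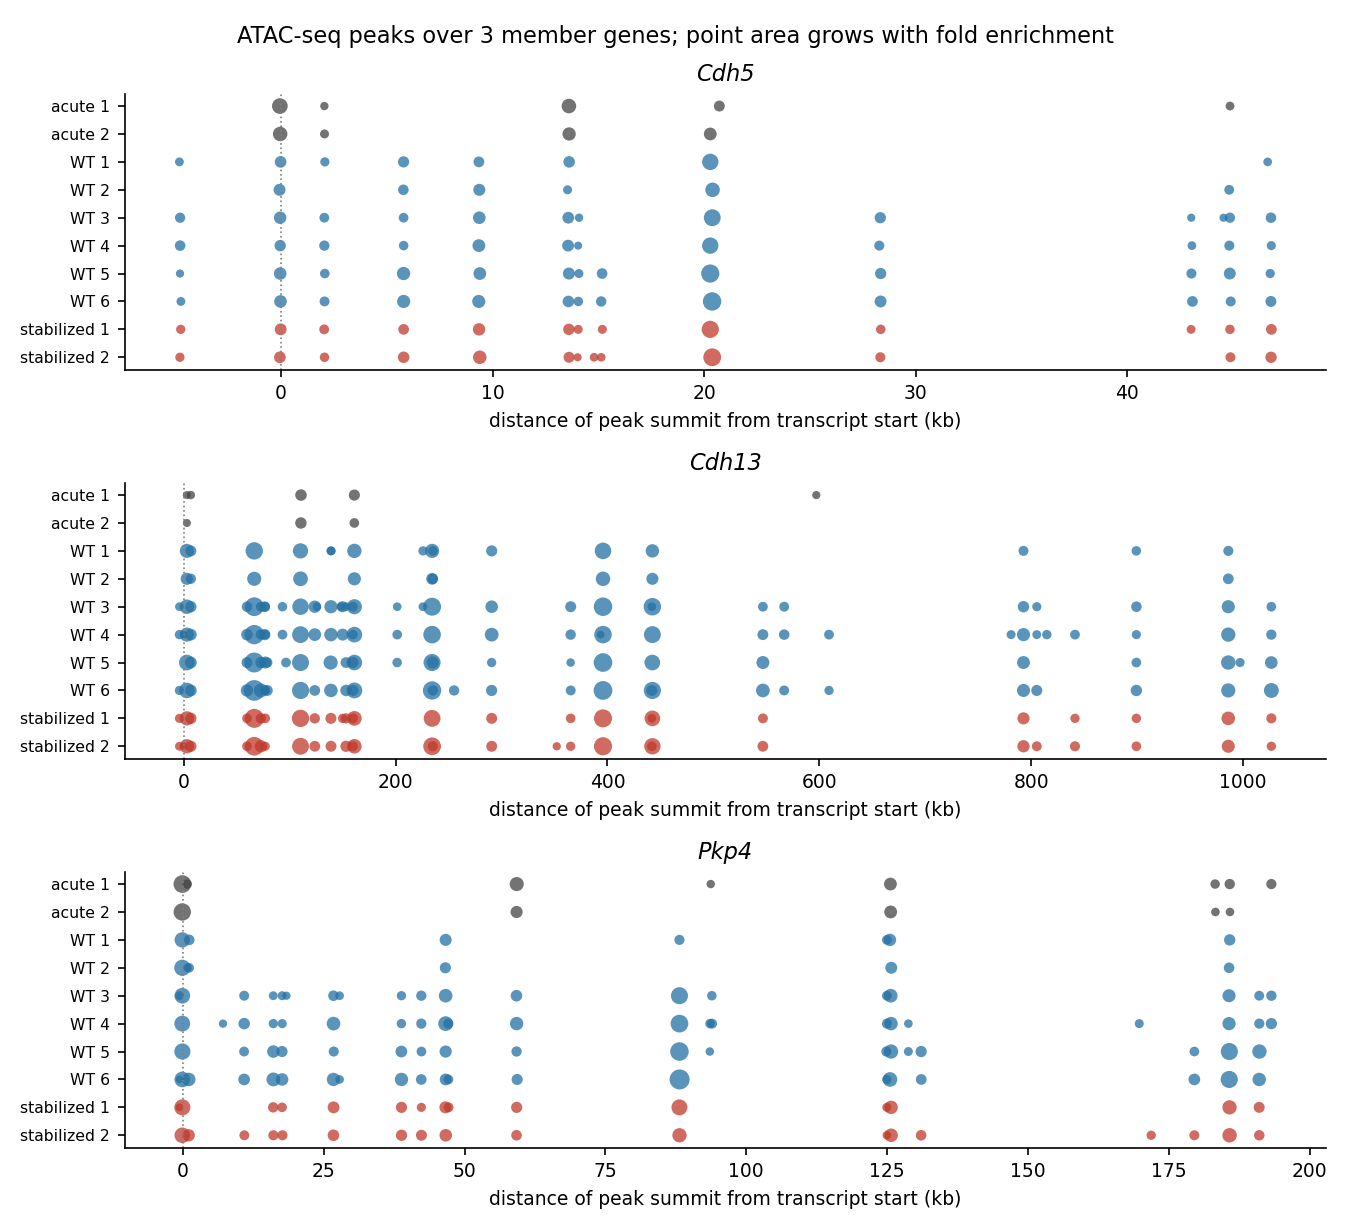
Position of ATAC-seq peaks over Cdh5, Cdh13 and Pkp4 in each library (rows), as the distance of the peak summit from the transcript start in kb, with point area growing with fold enrichment. Cdh13 has 3 to 5 peaks in acutely isolated ECs and 10 to 34 in WT cultures, and the Pkp4 promoter has a peak in every row.

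The 200 bases around the summit of the highest peak are shown for 5 regions of the leading cadherin and of the members called in culture. They are the gained region of Cdh13 with the highest fold enrichment (23.6) of its 5, both gained regions of Cdh5, and the gained and the lost region of Pkp4. The genomic sequence is that of RefSeq for GRCm38, read on the forward strand, and capitals mark a match to the AP-1 motif TGACTCA or the ETS motif CAGGAAG or CCGGAAG on either strand. The TCF/LEF motif CTTTGAT, through which beta-catenin acts, was searched as well. The motifs do not overlap one another in these windows.
Cdh13, gained, 66.63 kb from the start, chr8:118350265-118350464: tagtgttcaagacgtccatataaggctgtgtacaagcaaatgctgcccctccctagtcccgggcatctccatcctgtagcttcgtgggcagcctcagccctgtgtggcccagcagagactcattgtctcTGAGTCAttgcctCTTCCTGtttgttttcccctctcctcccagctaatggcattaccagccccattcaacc
Cdh5, gained, 5.8 kb from the start, chr8:104107321-104107520: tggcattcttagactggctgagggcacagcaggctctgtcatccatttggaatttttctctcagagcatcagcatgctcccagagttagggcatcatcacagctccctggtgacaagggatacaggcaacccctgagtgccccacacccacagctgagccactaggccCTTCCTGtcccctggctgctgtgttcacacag
Cdh5, gained, 9.4 kb from the start, chr8:104110922-104111121: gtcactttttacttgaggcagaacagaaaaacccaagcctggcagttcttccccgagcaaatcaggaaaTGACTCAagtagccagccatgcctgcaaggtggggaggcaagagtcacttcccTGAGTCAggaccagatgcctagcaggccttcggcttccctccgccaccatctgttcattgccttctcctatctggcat
Pkp4, gained, 46.63 kb from the start, chr2:59207377-59207576: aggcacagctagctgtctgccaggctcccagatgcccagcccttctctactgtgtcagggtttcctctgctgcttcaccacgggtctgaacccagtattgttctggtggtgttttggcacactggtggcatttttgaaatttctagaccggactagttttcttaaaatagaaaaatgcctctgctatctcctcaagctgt
Pkp4, lost, 183.22 kb from the start, chr2:59343972-59344171: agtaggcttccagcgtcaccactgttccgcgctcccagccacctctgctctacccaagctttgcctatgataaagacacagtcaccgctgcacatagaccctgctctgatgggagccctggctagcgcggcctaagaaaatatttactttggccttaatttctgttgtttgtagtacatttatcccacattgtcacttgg
The first window of Cdh13 held 1 AP-1 and 1 ETS match, the window 9.4 kb into Cdh5 held 2 AP-1 matches, the one at 5.8 kb held 1 ETS match, and the windows of Pkp4 held none. Among the 4 other gained windows of Cdh13, 0 held an AP-1 match and 2 an ETS match. Of the 14 gained member regions, the 4 of Cdh2 were not read here, and over the other 10 windows 2 held an AP-1 match, 4 an ETS match and 0 a TCF/LEF match, and over the 6 lost windows the numbers were 0, 2 and 0. Among all 10207 gained regions 41.2% of such windows held an AP-1 match, against 1.93% of 3671 lost and 9.03% of 16919 shared regions. The ETS shares were 25.0%, 20.3% and 26.6%, and the TCF/LEF shares were 2.25%, 11.6% and 1.76%. RefSeq promoter sequences were at hand for 3 members, Ctnnd1, Jup and Pkp4, in 5 entries, and none of the 5 held any of these letters, which occur in 5.20% (AP-1), 20.9% (ETS) and 3.73% (TCF/LEF) of 32851 promoters. A match describes the letters of a window and is not evidence of binding.

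Over the 14 RNA-seq libraries, the genes whose log2(TPM + 1) was most like that of each cadherin were sought among 10680 protein-coding symbols. For Cdh5 these were Mecom (Pearson's r = 0.98), Ly75 (0.977) and Heg1 (0.973). For Cdh2 they were Tmem104 (0.959), Nrbf2 (0.955) and Stk40 (0.936), and for Cdh13 Tnfrsf8 (0.988), Cebpd (0.985) and Raet1d (0.985), of which Raet1d was listed at 0 in all 4 sorted libraries. Between members, r was highest for Cdh5 with Pecam1 (0.949) and lowest for Cdh13 with Pkp4 (−0.718). These are descriptions over libraries that share group, read type and depth, with wells of 1 experiment among them.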

How the data were processed

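RNA-seq was analysed in 14 libraries and ATAC-seq in 10, grouped by the titles and genotypes of the records. Isolation method and read length came from the study's methods. The authors quantified RNA-seq reads with Salmon 0.14.0 on GENCODE M21 transcripts and deposited for each transcript an estimated count, which is not normalized, and a TPM value, which is scaled by effective length. For ATAC-seq the authors aligned reads to GRCm38 with HISAT2 2.1.0, and MACS2 2.1.2 was run on every library by itself. The deposited peaks carry a fold enrichment over local background and a −log10 q, and the deposited score column was not used.

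Counts and TPM were summed per protein-coding symbol, and summed counts were rounded. Each comparison was fitted on its own libraries by the quasi-likelihood test of edgeR 4.0.16 (R 4.3.3), after filterByExpr and TMM scaling, with no covariate and with adjustment over all symbols tested. The study's own tool, EBSeq, was not used here. Results were recomputed with DESeq2 1.42.0, other scalings and filters, an offset for transcript length, transcript subsets, single isolation methods, wells summed, a replicate block, and each library left out. The interaction of stabilization with method was fitted on the 8 cultures of 36 cycles. The procedure was tested on simulated data. Standard errors were derived from the fold change and the F statistic. Depth of 24284843 to 94686456 counts makes counting error small beside the spread between libraries, and where nothing ties libraries to separate animals, p values measure only that spread.

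Replicate numbers of stabilized and WT cultures were checked for pairing. The deviations of same-numbered wells from their group means correlated at 0.27, 0.35, 0.28 and 0.34 over 8744 genes. Same-numbered wells also shared an isolation method, and wells of unlike number were not compared. These values therefore cannot show that single wells are paired, and the replicate block is an alternative fit only. Members and lists were chosen with earlier results of these data known. The genes named are the 9 members, Ctnnb1, up to 2 called genes with the largest change in each direction of each list, and the 3 genes most like each cadherin. ATAC-seq regions are peaks merged over libraries. Libraries of cerebrum alone were not used here.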

Additional observations from a re-analysis of the deposited data

Results flagged for a closer look

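The effect of stabilization differed between isolation methods for 6 of the 9 members, by edgeR's test of the interaction over the 8 cultures of 36 cycles. The differences (method B minus method A, log2 scale of counts) were −1.25 for Cdh5, −0.996 for Cdh2, −1.12 for Ctnnd1, −0.75 for Ctnna1, 0.89 for Cdh13 and 0.60 for Pecam1. In both methods each effect rests on 2 stabilized and 2 WT wells of 1 experiment each. Of all symbols tested 50.0% passed the same test, so that a difference of this kind is not particular to these genes. Strain, which differed between the groups in method A, was not tested. No sample stood apart from its group by Dixon's criterion in 28 groups of values examined, a criterion by which chance marks about 1 group in 20. It looks at the gap between an extreme value and its nearest neighbor. Wells came 2 per experiment, so that it could not mark an experiment whose 2 wells stood apart together.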

How the results depend on the processing

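Over the 3 comparisons and the interaction, the members' values kept their direction and side of the threshold under 135 of 144 alternatives for GFP-positive cells, 186 of 216 for culture, 216 of 234 for stabilization and 75 of 81 for the interaction. For culture, the count of members called higher was 2 with the replicate block, with those libraries unblocked and with method A alone, and 0 to 1 with a library left out. The count called lower was 3 in the first 3 of these settings (Cdh2, Ctnnd1 and Pkp4), 2 with the length offset (Esam and Pkp4), 0 with method B alone and with protein-coding transcripts alone, and 0 to 1 with a library left out. Over all symbols, the count was 2117, 2038 and 2038 higher and 1784, 1781 and 1781 lower in those first 3 settings. The 6 calls for GFP-positive cells were made with the replicate block as well. For culture, same-numbered libraries shared only a number, and their deviations correlated at −0.057. The GFP-positive and GFP-negative libraries of 1 number may be fractions of the same sort. Their deviations correlated at 0.096, and the main fit did not pair them. For stabilization, the members called higher were 2 with the replicate block, unblocked in the same libraries and with method A alone (Cdh5 and Ctnnd1), and 1 with method B alone and with method as a covariate (Cdh13). Over all symbols, the count called higher was then 151, 164, 691, 139 and 67, against 0 without these changes. The libraries of the replicate block leave out WT replicates 5 and 6, so that read length differed between their method B wells. The acutely isolated ratio of Cdh2 to Cdh5 was 0.0673 on counts scaled to the library total.

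Directions turned for values that were not called. For culture, the length offset gave 0.14 for Cdh5, 0.12 for Cdh2, −0.049 for Pecam1 and −1.57 for Esam, the last of which it called. Jup was at 0.20 with library-size scaling, 0.042 with the replicate block, 0.019 without it and with method A alone, 0.026 with wells summed, 0.0026 with protein-coding transcripts alone, and from −0.30 to 0.22 with a library left out. Pecam1 was at −0.50 with method B alone and from −0.073 to 0.68 with a library left out. For GFP-positive cells, Cdh2 ranged from −0.61 to 0.0080 with a library left out. For stabilization, method A alone gave 0.28 for Cdh2, −0.22 for Pkp4 and 0.31 for Esam, method B alone gave −0.061 for Ctnnd1, −0.081 for Pkp4 and 0.12 for Esam, and method as a covariate gave −0.16 for Pkp4 and 0.21 for Esam. Esam ranged from −0.15 to 0.028 with a library left out. In the interaction, Jup was at 0.10 with library-size scaling and from −0.079 to 0.049 with a library left out. Beyond what each setting leaves out, the cause was not tested. The 2 sorted libraries of each kind, with a read type of their own, limit every contrast with the cultures.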
